A study of Homo sapiens with 9 samples.

Results

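The genes described here are the ZNF genes of human chromosome 19, which encode zinc finger proteins. A gene was a member if it was protein-coding, lay on chromosome 19 in GENCODE 29 (build GRCh38), had a symbol of ZNF followed by digits alone, and had a mean CPM of at least 2 over all 9 libraries. For this rule CPM is the count divided by the plain library total, on the usual scale. All CPM after this paragraph are on totals scaled by TMM, unless a mean over the 9 libraries is named. Of 240 such symbols on the chromosome, 207 met that level, out of 67071 genes in the whole table. The other 33 lay under it, and 6 of those had 0 counts in every library. ZNF442 at 2.19 CPM, ZNF208 at 2.30 and ZNF610 at 2.35 lay just inside the limit, and ZNF541 at 1.94, ZNF547 at 1.69 and ZNF556 at 1.35 just outside. The members were chosen by this mean level, which is therefore given as a description only. The level limit did not use the differences between groups below, but the set was chosen with earlier results of these data known.

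RNA was sequenced from 22Rv1, an established human prostate carcinoma cell line, labelled wild type throughout. Every group carried a short hairpin RNA: 3 libraries had a hairpin against GFP (shGFP, the control), 3 had a first hairpin against CHD9 (hairpin 1) and 3 a second one (hairpin 2). CHD9 encodes a chromatin remodeller of the CHD family. No time after the knockdown is given in the labels, and they do not say whether the 3 libraries of a group are separate cultures. The p-values therefore reflect the scatter among these particular libraries, which may be technical.

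Library totals ran from 18911142 to 31968602 counts. CHD9 itself had 22.8, 20.5 and 23.2 CPM in the shGFP libraries, 14.8, 16.7 and 14.9 under hairpin 1, and 18.3, 18.8 and 19.3 under hairpin 2. It fell by 0.52 on the log2 scale with hairpin 1 (SE 0.07, edgeR quasi-likelihood test, Benjamini-Hochberg adjusted p = 7.2e-08) and by 0.24 with hairpin 2 (SE 0.07, adjusted p = 0.0060), so the target retained most of its RNA. Of the prostate luminal markers, 9 of 9 were above 1 CPM, with summed levels of 1869 to 1907 CPM in shGFP, 2157 to 2184 with hairpin 1 and 2031 to 2056 with hairpin 2. No basal (0 of 4), endothelial (0 of 4) or immune marker (0 of 6) reached 1 CPM. For fibroblasts 3 of 7 did, at summed levels of 8.99 to 9.66, 11.04 to 12.5 and 10.6 to 13.4 CPM in the same order. These marker levels moved with the groups, and their part in the results was not tested. Fewer cells of a kind and less RNA per cell cannot be told apart in such bulk samples. No library stood apart: the chi-square per degree of freedom between libraries was 1.72 to 2.86 within groups and 9.68 to 30.5 between groups.

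Most ZNF genes of chromosome 19 arose by repeated local duplication and stand in clusters on both arms. Many encode a KRAB domain in front of a row of zinc fingers. The fingers bind DNA, often in a transposable element, and the KRAB domain recruits the corepressor TRIM28, which brings the histone methyltransferase SETDB1 and HP1 proteins and so silences the site. ZNF274, encoded on the same chromosome, is known for binding the 3′ exons of ZNF genes themselves.

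The shared ancestry is visible in the transcripts. Neighbouring fingers are joined by a linker of threonine, glycine, glutamate, lysine and proline. Of all words of 11 bases, the one found in the longest GENCODE transcripts of the most annotated ZNF genes of the chromosome, on the sense strand, encodes glycine, glutamate, lysine and the start of proline in frame:
linker word: GGAGAGAAACC
It was present in 139 of 207 members (67.1%), against 1.80% of all 19922 protein-coding genes and 1.11% of those that were not members. Members with the word held a median of 5 copies, and ZNF208 held the most, 20. The word was picked for being common in these genes, so the shares are a description.

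Promoters were compared over 250 bases before to 50 after the start in RefSeq (GRCh38.p14), for the 181 of 207 members that matched. A word of the ETS factors, CCGGAAG, read as CTTCCGG on the other strand, was in 76 of these 181 windows (42.0%), compared with 10.3% of all 35116 windows and 12.8% of the 22199 of protein-coding genes. A GC box (GGGCGG, either strand) was in 118 of the 181 member windows (65.2%). It was in 15786 of all 35116 (45%) and in 56.3% of those of protein-coding genes. TATAAA, on either strand, was in 2.76% of member windows, 11.5% of all and 9.47% of those of protein-coding genes. The ETS word was in 25 of 49 windows of members that were lower with the CHD9 hairpins (51.0%), 6 of 11 of those that were higher (54.5%) and 45 of 121 of the rest (37.2%). A match is only a run of letters in the window and was not tested as a site. The 4 windows below were chosen because they belong to named members that fell (ZNF675, ZNF606) or rose (ZNF708, ZNF587) and hold the word, which is in capitals. They lie at chr19:23687163-23687462 (minus strand), chr19:58002771-58003070 (minus), chr19:21329361-21329660 (minus) and chr19:57849609-57849908 (plus), and each reads 5′ to 3′ on its gene's strand.
ZNF675: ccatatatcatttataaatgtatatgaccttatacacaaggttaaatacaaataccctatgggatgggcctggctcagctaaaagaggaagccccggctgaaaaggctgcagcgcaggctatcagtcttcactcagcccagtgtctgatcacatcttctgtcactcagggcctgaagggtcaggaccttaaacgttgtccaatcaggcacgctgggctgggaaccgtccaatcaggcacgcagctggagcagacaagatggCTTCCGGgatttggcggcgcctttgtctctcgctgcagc
ZNF606: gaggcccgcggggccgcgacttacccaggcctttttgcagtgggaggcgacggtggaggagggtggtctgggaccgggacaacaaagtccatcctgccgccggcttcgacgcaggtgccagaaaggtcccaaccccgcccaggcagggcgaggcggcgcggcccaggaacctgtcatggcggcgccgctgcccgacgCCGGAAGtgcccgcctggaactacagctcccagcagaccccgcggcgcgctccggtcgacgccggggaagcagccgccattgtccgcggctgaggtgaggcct
ZNF708: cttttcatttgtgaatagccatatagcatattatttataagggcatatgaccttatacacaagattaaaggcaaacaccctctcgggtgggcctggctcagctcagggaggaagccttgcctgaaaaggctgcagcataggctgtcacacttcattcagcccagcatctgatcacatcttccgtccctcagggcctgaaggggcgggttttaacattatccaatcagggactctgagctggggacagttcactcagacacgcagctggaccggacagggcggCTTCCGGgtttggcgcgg
ZNF587: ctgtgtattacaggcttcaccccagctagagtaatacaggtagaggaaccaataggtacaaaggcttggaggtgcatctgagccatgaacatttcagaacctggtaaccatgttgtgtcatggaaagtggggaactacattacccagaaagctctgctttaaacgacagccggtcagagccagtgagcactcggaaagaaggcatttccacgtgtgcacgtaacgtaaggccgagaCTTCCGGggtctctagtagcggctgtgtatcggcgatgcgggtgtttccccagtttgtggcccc
ZNF675 and ZNF708 lie in the same cluster of the short arm, and their windows were identical at 231 of 277 aligned bases (83.4%). The other pairs of these 4 windows reached 66.1% to 69.1%. These shares leave out gaps. As shares of the whole window they were 77% for ZNF675 and ZNF708 and 55.3% to 59.3% for the other pairs. What unrelated windows reach was not tested, so the values of the other pairs do not show shared origin. This close pair differed in direction: ZNF675 fell and ZNF708 rose.

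Members were expressed at low to moderate levels. Their means over the 9 libraries ran from 2.19 to 84.3 CPM with a median of 10.5. In a single library the median member had 200 to 350 counts and the lowest member 32 to 79. Per kilobase of exon, the shGFP level ranged from 0.34 to 38.2 CPM with a median of 2.08. The most abundant by this measure was ZNF428, at 38.2 CPM per kilobase, followed by ZNF146 at 21.6. Their transcripts had a median GC content of 42.1%, and the range was 33.9% to 71.1%. The median over the 16482 tested genes with a value was 48.7%.

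With both CHD9 hairpins combined, more of the ZNF genes were lower than higher, and the differences were small. Of 207 members, all of which were tested, 59 fell and 11 rose (edgeR quasi-likelihood test, Benjamini-Hochberg adjusted p under 0.05), and 137 did not pass. Over all genes tested, 45.5% passed, with 22.3% higher and 23.2% lower. Among members, 28.5% were lower, a share near that background, and 5.31% were higher, below it. Of the 10421 protein-coding genes of other chromosomes outside the ZNF genes that met the same minimum level, 30.7% were lower and 26.9% higher. The median log2 fold change was -0.10 over the members and 0.00 over all genes tested, and 148 of 207 members had a value below zero. The median change of the members that fell was -0.31, and 1 of the 70 that passed differed by more than 1.5-fold. A correction for transcript GC content and exonic length left 38 members lower (18.4%) and 20 higher (9.66%), with a median of -0.04. Over all genes, 23.7% were lower and 20.5% higher with that correction, so both shares of the members then lay below the background. Of the 59, 28 were still lower, and of the 11, 9 were still higher.

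Summed over members, the level was 3096 ± 24.8 CPM in shGFP (SD, n = 3), 2893 ± 9.55 with hairpin 1 and 3006 ± 31.7 with hairpin 2. The hairpin libraries thus held 0.934 and 0.971 of the control level. All 6 CHD9 libraries lay below all 3 shGFP libraries for 34 members (16.4%, against 16.2% of all genes tested) and above them for 7 (3.38%, against 15.5%).

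**Figure D1:**
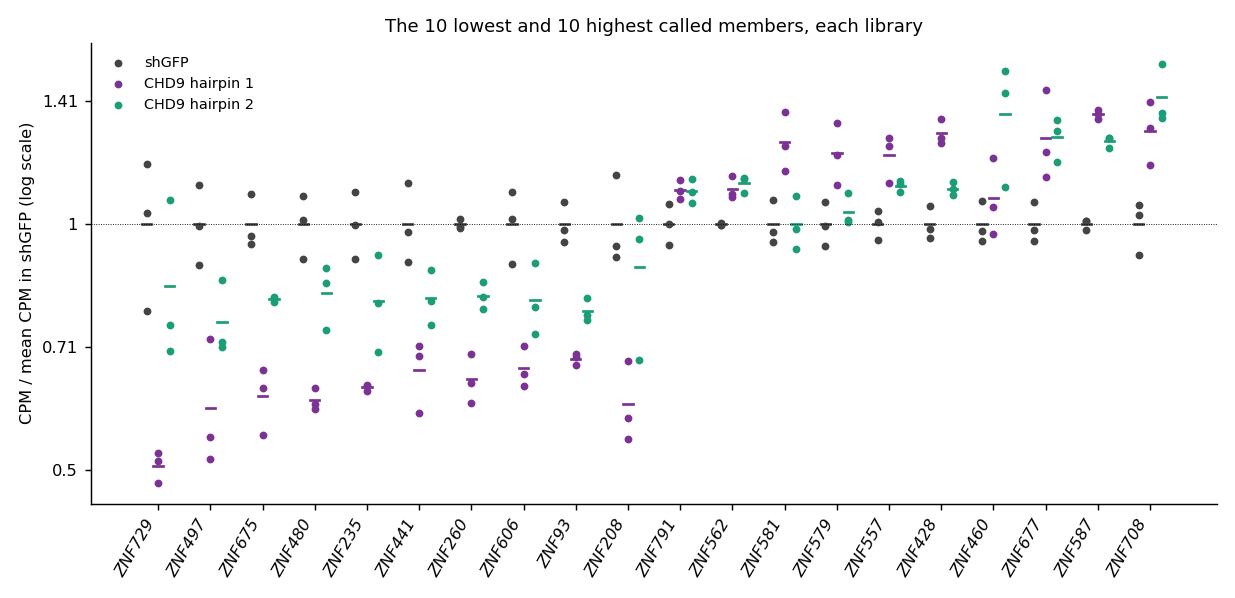
Level of the 10 members that fell most and the 10 that rose most with both CHD9 hairpins combined, in each library, divided by the mean of the 3 shGFP libraries (vertical log axis, no unit). Points are libraries and short bars are group means; ZNF729 with hairpin 1 is the lowest, and for ZNF587 and ZNF708 all 6 CHD9 libraries lie above the 3 shGFP libraries.

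ZNF729, a gene of the short arm at chr19:22286408-22317176, had the lowest value. It measured 6.99, 6.08 and 4.62 CPM in the shGFP libraries, 3.02, 2.84 and 3.09 under hairpin 1, and 4.12, 4.44 and 6.31 under hairpin 2. The hairpin 1 libraries were all below the controls, whereas hairpin 2 overlapped them. It fell by 0.61 on the log2 scale (SE 0.14, adjusted p = 0.00022) with both hairpins together, but the call was lost when the 6 CHD9 libraries were treated as 1 group (-0.56). Its counts were 61 to 144 per library.

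ZNF675, at chr19:23525631-23687220, encodes a protein known to inhibit TRAF6 signalling. Its level was 26.2, 22.7 and 23.2 CPM in shGFP, 13.3, 15.1 and 15.9 under hairpin 1, and 19.3, 19.5 and 19.6 under hairpin 2. The 3 groups did not overlap: shGFP was highest, then hairpin 2, then hairpin 1. It fell by 0.69 with hairpin 1 (SE 0.07, adjusted p = 1.6e-10) and by 0.30 with hairpin 2 (SE 0.07, adjusted p = 0.00068).

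ZNF480, at chr19:52297177-52325922 on the long arm, followed the same order. The values were 21.9, 18.4 and 20.5 CPM in shGFP, 12.03, 12.2 and 12.8 under hairpin 1, and 17.2, 17.9 and 15.03 under hairpin 2, and no group overlapped another. It fell by 0.49 with both hairpins together (SE 0.07, adjusted p = 7.5e-08).

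ZNF260, at chr19:36510695-36528660, had tight libraries: 25.6, 25.7 and 26.2 CPM in shGFP, 15.6, 16.5 and 17.9 under hairpin 1, and 20.4, 21.9 and 21.1 under hairpin 2. Again the groups did not overlap. It fell by 0.46 overall (SE 0.06, adjusted p = 6.1e-09), and by 0.30 with the GC content and length correction.

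ZNF93 is known for repressing LINE-1 elements and lies at chr19:19900913-19963464. It had 18.7, 19.4 and 20.97 CPM in shGFP, 13.5, 13.2 and 13.6 under hairpin 1, and 15.2, 15.96 and 15.03 under hairpin 2. Both hairpin groups were wholly below the controls. It fell by 0.45 (SE 0.06, adjusted p = 9.7e-08). Its relative ZNF91, which represses SVA and LINE-1 elements, had 29.2, 26.2 and 30.6 CPM in shGFP, 22.2, 25.4 and 23.9 under hairpin 1 and 28.1, 25.9 and 26.9 under hairpin 2. Only hairpin 1 was wholly below the controls for ZNF91, which fell by 0.18 overall (SE 0.06, adjusted p = 0.0071), and that call was lost with the GC content and length correction (-0.04). ZNF91 was added after its values were seen, for its known role.

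ZNF497, near the end of the long arm at chr19:58354357-58362848, differed from most members that fell in having a transcript of 62.6% GC. It measured 7.62, 6.83 and 8.56 CPM in shGFP, 4.21, 3.95 and 5.55 under hairpin 1 and 5.51, 5.42 and 6.55 under hairpin 2. Every CHD9 library was below every control. It fell by 0.57 (SE 0.11, adjusted p = 2.9e-05), and by 0.73 with the GC content and length correction.

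Of the remaining members among the 10 lowest, ZNF606 (log2 fold change -0.46), ZNF235 (-0.48) and ZNF441 (-0.46) passed with 5 to 13 CPM in the controls. ZNF441 moved to -0.30 with the GC content and length correction. ZNF208 had only 34 to 86 counts per library. Its log2 fold change of -0.45 (SE 0.17, adjusted p = 0.031) lost its call with the GC content and length correction (-0.30, adjusted p = 0.16), with DESeq2 (-0.45), and on leaving out shGFP replicate 2 (-0.34), hairpin 1 replicate 2 (-0.42) or 3 (-0.43), or hairpin 2 replicate 3 (-0.38).

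Of the 11 members that rose, ZNF708 had the highest value, at chr19:21291160-21329425 in the same cluster as ZNF675 and ZNF729. It measured 10.6, 9.21 and 10.3 CPM in shGFP, 11.9, 14.2 and 13.2 under hairpin 1, and 13.5, 15.8 and 13.8 under hairpin 2. Both hairpin groups were wholly above the controls. It rose by 0.46 (SE 0.08, adjusted p = 7.5e-06), and by 0.62 with the GC content and length correction.

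ZNF587, a repressor of endogenous retroviral elements at chr19:57849857-57865112, had 34.4, 35.3 and 35.4 CPM in shGFP, 47.2, 47.8 and 48.4 under hairpin 1, and 44.7, 43.4 and 44.7 under hairpin 2. The groups were far apart relative to their spread. It rose by 0.39 (SE 0.04, adjusted p = 1.8e-10). It shared 20.2% of the 50-base words of its longest transcript with other genes, so some of its reads may belong to them.

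ZNF677, at chr19:53235381-53254898, had 8.04, 7.80 and 8.71 CPM in shGFP, 11.9, 10.04 and 9.35 under hairpin 1 and 9.75, 10.97 and 10.6 under hairpin 2. All CHD9 libraries were above all controls. It rose by 0.34 (SE 0.09, adjusted p = 0.0014).

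ZNF428, the most abundant member per kilobase, rose from 66.2, 72.5 and 68.1 CPM in shGFP to 92.9, 86.7 and 87.99 under hairpin 1 and 77.6, 74.8 and 76.1 under hairpin 2. The log2 fold change was 0.26 (SE 0.03, adjusted p = 4.0e-08), and 0.13 with the GC content and length correction.

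ZNF557 (0.22), ZNF562 (0.16) and ZNF791 (0.14, and 0.23 with the GC content and length correction) rose by less, and all their CHD9 libraries were above all control libraries. The calls of ZNF557 (0.19) and ZNF791 (0.10) were lost without shGFP replicate 2. ZNF460 (0.29, adjusted p = 0.040) rested on few counts, 94 to 237 per library. Its call was lost with DESeq2 (0.28) and on leaving out shGFP replicate 1 or 3, hairpin 1 replicate 2, or hairpin 2 replicate 1 or 2 (0.24 to 0.27). The calls of ZNF579 (0.17) and ZNF581 (0.16) were both lost with the GC content and length correction, at -0.018 and 0.056, and without shGFP replicate 3 (0.12 and 0.14). ZNF581 also lost its call without shGFP replicate 1 or hairpin 1 replicate 2, at 0.13 for each. Their transcripts had 65.9% and 59.6% GC.

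The other members most abundant per kilobase were ZNF146, ZNF787, ZNF581 and ZNF524. ZNF146, whose protein is known to consist almost wholly of zinc fingers without a KRAB domain, had 88.1, 87.9 and 92.6 CPM in shGFP, 76.2, 73.9 and 76.03 under hairpin 1 and 78.05, 79.5 and 79.3 under hairpin 2. All CHD9 libraries were below the controls, and it fell by 0.22 (SE 0.03, adjusted p = 1.9e-07), and by 0.092 with the GC content and length correction (adjusted p = 0.0088). ZNF787 had a log2 fold change of -0.05 (SE 0.04, adjusted p = 0.35) and ZNF524, a telomere-binding protein gene, -0.08 (SE 0.06, adjusted p = 0.26). Both passed as lower after that correction, at -0.27 and -0.25, and ZNF787 also without shGFP replicate 3 (-0.12).

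ZNF274, at chr19:58183029-58213562, had 27.4, 29.7 and 30.7 CPM in shGFP, 26.3, 30.7 and 25.5 under hairpin 1 and 26.9, 27.1 and 26.6 under hairpin 2. The hairpin 1 libraries overlapped the controls on both sides. The log2 fold change of -0.11 (SE 0.06, adjusted p = 0.099) did not pass, and with the GC content and length correction it did (-0.15, adjusted p = 0.019), as it did without shGFP replicate 1 or hairpin 1 replicate 2, at -0.15 for each.

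Taken 1 hairpin at a time, against the same shGFP libraries, hairpin 1 gave more calls among the members. With hairpin 1, 70 members fell and 13 rose, with a median log2 fold change of -0.15. The background was 47.3% called, 23.9% higher and 23.4% lower. In the hairpin 2 libraries 30 members fell and 14 rose, with a median of -0.05, on a background of 35.7% called, 17.2% higher and 18.5% lower. Corrected for GC content and length, the counts were 42 lower and 19 higher for hairpin 1, and 25 lower and 18 higher for hairpin 2. In percent the members were 20.3% lower and 9.18% higher for hairpin 1, against 22.9% and 21.9% of all genes. For hairpin 2 they were 12.1% lower and 8.70% higher, against 20.5% and 16% of all genes. Changes above 1.5-fold were seen in 10 members called with hairpin 1 and 0 called with hairpin 2.

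Both comparisons share the shGFP libraries, so their calls are not independent. Lower with each hairpin were 28 members, out of 70 for hairpin 1 and 30 for hairpin 2. That is 13.5% of the members, the level of all genes tested, 13.6%. Higher with each were 6 members, out of 13 and 14, which is 2.90% of the members against 13.2% of all genes. No member (0 of 207) was called in opposite directions, against 0.86% of all genes, and 114 (55.1%) were called with neither, against 44.7%.

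**Figure D2:**
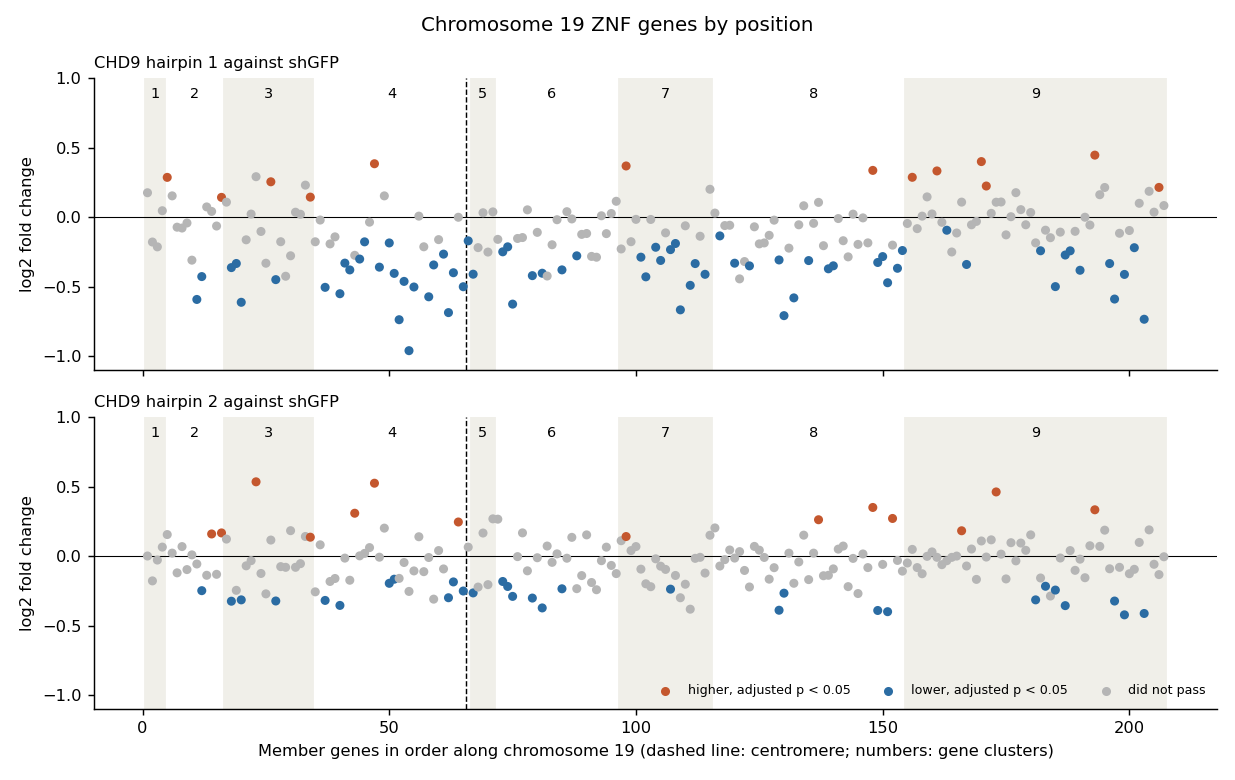
Log2 fold change of each of the 207 members (vertical axis) in gene order along chromosome 19 (horizontal axis, rank), for hairpin 1 (upper panel) and hairpin 2 (lower panel) against shGFP; coloured points passed the test. Shading and numbers mark the 9 gene clusters and the dashed line the centromere. In cluster 4, beside the centromere, 19 of 30 members were lower with hairpin 1 and 7 with hairpin 2. These are 63.3% and 23.3% of the cluster, which had a median GC content of 37.4%. Over all genes tested, 23.4% and 18.5% were lower, and of those under 40% GC, 50.1% and 32.8%.

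Hairpin 1 compared directly with hairpin 2, in the same fit of all 9 libraries, gave 44 members lower and 7 higher with hairpin 1. The median was -0.09. The background was 29.2% called, 15.6% higher and 13.6% lower. CHD9 itself was also lower with hairpin 1 than with hairpin 2, by a log2 difference of -0.28 (SE 0.07, adjusted p = 0.0024), a call that was lost with the GC content and length correction (-0.18, adjusted p = 0.0503). The same correction reduced the counts of members to 19 lower (9.18%) and 6 higher (2.90%), against 11.5% and 15% of all genes. Of the 44, 17 were still lower. DESeq2 called 26 lower.

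ZNF729 had the lowest difference, -0.71 (SE 0.17, adjusted p = 0.00085). ZNF66, of the same cluster, had 5.21, 4.81 and 5.31 CPM in shGFP, 4.51, 3.55 and 4.58 under hairpin 1 and 6.14, 6.41 and 6.46 under hairpin 2. Its hairpin 1 libraries lay below the controls and its hairpin 2 libraries above them. The difference was -0.58 (SE 0.13, adjusted p = 0.00040). Against shGFP, it was 0.31 with hairpin 2 (adjusted p = 0.0496) and -0.28 with hairpin 1 (adjusted p = 0.094).

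ZNF728, also of that cluster, had 7.26, 6.92 and 7.56 CPM in shGFP, 4.75, 4.97 and 4.88 under hairpin 1 and 6.46, 7.46 and 7.73 under hairpin 2. Hairpin 2 overlapped the controls and hairpin 1 lay wholly below them. The difference was -0.56 (SE 0.12, adjusted p = 0.00020). ZNF559, at chr19:9323772-9351162, gave the same picture, with 9.67, 9.48 and 8.98 CPM in shGFP, 5.40, 6.80 and 6.33 under hairpin 1, and 10.1, 8.26 and 8.67 under hairpin 2. Its difference was -0.54 (SE 0.11, adjusted p = 0.00018). ZNF208 (-0.58, adjusted p = 0.032) rested on the low counts given above, and its call was lost on leaving out hairpin 1 replicate 2 or 3, or hairpin 2 replicate 1 or 2 (-0.55 to -0.49).

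In the other direction, ZNF324 had 26.7, 26.3 and 25.1 CPM in shGFP, 30.9, 28.8 and 30.7 under hairpin 1 and 24.7, 22.5 and 24.1 under hairpin 2. The hairpin 1 libraries were all above the controls and the hairpin 2 libraries all below. Its difference was 0.35 (SE 0.06, adjusted p = 1.2e-05), and 34.2% of its 50-base words occurred in other genes. ZNF581 (0.34), ZNF579 (0.24), ZNF526 (0.24) and ZNF264 (0.23) followed. Except for ZNF264, at 42.4% GC, these had transcripts of 57.8% to 65.9% GC, and the calls of ZNF579 and ZNF526 were lost with the GC content and length correction (0.14 and 0.17). ZNF579 was also lost without hairpin 1 replicate 2 (0.17), and ZNF526 without hairpin 1 replicate 3 (0.19) or hairpin 2 replicate 2 (0.22).

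By position, a new cluster was counted wherever neighbouring ZNF genes started more than 1 Mb apart, which gave 4 clusters on the short arm and 5 on the long arm, with 6 scattered members outside them. The short arm held 65 members, of which 23 fell (35.4%) and 5 rose (7.69%) with both hairpins together (median -0.13). The long arm held 142, of which 36 fell (25.4%) and 6 rose (4.23%), with a median of -0.09. Of all genes tested, 23.2% were lower, near the share of the long arm, and 22.3% higher. Summed levels on the short arm were 969 ± 19.3 CPM in shGFP (SD, n = 3), 882 ± 7.80 with hairpin 1 and 943 ± 12.1 with hairpin 2. On the long arm they were 2126 ± 8.09, 2011 ± 3.23 and 2063 ± 25.7 CPM. Corrected for GC content and length, the counts were 11 lower (16.9%) and 10 higher (15.4%) on the short arm. On the long arm they were 27 lower (19%) and 10 higher (7.04%), against 23.7% and 20.5% of all genes. The difference between the arms was not tested.

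The largest share of calls on the short arm came from cluster 4, between 19.7 and 24.1 Mb beside the centromere, which holds ZNF91, ZNF43 and their relatives. Of its 30 members, 17 fell (56.7%) and 1, ZNF708, rose with both hairpins together, with a median of -0.19. With hairpin 1 alone 19 fell (63.3%) and 1 rose (median -0.32). With hairpin 2 alone 7 fell (23.3%) and 3 rose (median -0.10). In the direct comparison of the hairpins, 18 of the 30 were lower with hairpin 1 (60%) and 0 higher. In the same order, 45.9%, 50.1%, 32.8% and 30.6% of all tested genes under 40% GC were lower. Of all genes tested, 23.2%, 23.4%, 18.5% and 13.6% were lower. ZNF43, for example, had 21.4, 21.3 and 20.8 CPM in shGFP, 16.05, 16.1 and 15.8 under hairpin 1 and 19.1, 18.7 and 18.7 under hairpin 2, groups that did not overlap. ZNF43 fell by 0.29 (SE 0.06, adjusted p = 7.9e-05), lost its call with the GC content and length correction (-0.14, adjusted p = 0.053), and was named after its values were seen. Not every gene of the cluster was lower. ZNF431 had 22.6, 21.3 and 22.2 CPM in shGFP, 22.9, 22.6 and 19.3 under hairpin 1 and 21.2, 24.2 and 23.3 under hairpin 2, with a log2 fold change of 0.01 (SE 0.06, adjusted p = 0.89). Cluster 4 also had the lowest median GC content of the clusters, 37.4%. After the GC content and length correction 6 of its members fell and 4 rose with both hairpins together. With hairpin 1 alone 9 then fell and 4 rose, and with hairpin 2 alone 2 fell and 5 rose. Between hairpins, 5 were then lower with hairpin 1 and 0 higher.

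Of the other short-arm clusters, the one at 2.8 to 2.9 Mb had 4 members and no call. At 7.1 to 9.8 Mb, 2 of 12 members fell (16.7%) and 3 rose. At 11.5 to 12.6 Mb, 4 of 18 fell (22.2%) and 1 rose. On the long arm, the cluster at 36.2 to 37.8 Mb had 7 of 23 members lower (30.4%) and 0 higher (median -0.12). The cluster at 43.5 to 45.1 Mb had 6 of 19 lower (31.6%) and 1 higher (median -0.13). That at 51.6 to 53.6 Mb had 10 of 37 lower (27%) and 1 higher (median -0.15). Beside these, 23.2% of all genes tested were lower and 22.3% higher. In the small cluster at 34.7 to 35 Mb, 1 of 5, ZNF302, fell, by 0.34, and by 0.18 with the GC content and length correction. The last cluster, at 55.5 to 58.5 Mb, was the most populous. There 12 of 53 fell (22.6%) and 4 rose, with a median of -0.05 and a median GC content of 46.4%. Corrected for GC content and length, it had 15 lower (28.3%) and 4 higher (7.55%), against 23.7% and 20.5% of all genes. The clusters at 36.2, 43.5 and 51.6 Mb then had 3, 1 and 5 members lower in place of 7, 6 and 10, and 1, 1 and 4 higher in place of 0, 1 and 1, with medians of 0.016, -0.06 and -0.03. The cluster at 11.5 Mb then had 3 lower and 3 higher. The 6 scattered members had no call.

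Transcript GC content moved with the differences, among the members and over all genes. Spearman's rho between GC content and the log2 fold change of both hairpins was 0.35 over the 207 members and 0.32 over the 16482 tested genes with a value. This is a correlation across genes, which share libraries and are not independent replicates. For hairpin 1 it was 0.44 and 0.36, and for hairpin 2 it was 0.15 and 0.22. In the bin under 40% GC, 26 of 58 members fell and 2 rose, with a median of -0.18, beside -0.14 for all 2510 tested genes of the bin. From 40% to 45%, 22 of 89 fell and 5 rose, and the medians were -0.12 and -0.07. From 45% to 50%, 10 of 31 fell and 1 rose, with medians of -0.10 and 0.00. At 50% or more, 1 of 29 fell and 3 rose, with medians of -0.01 and 0.07. In each bin the median of the members lay below that of all genes. The shares called lower did not all differ in the same direction. They were 44.8% of members and 45.9% of all genes under 40% GC, and 24.7% and 32% from 40% to 45%. From 45% to 50% they were 32.3% and 21.4%, and at 50% or more 3.45% and 13.2%. Called higher, in the same order of bins, were 3.45%, 5.62%, 3.23% and 10.3% of members against 8.61%, 14.9%, 18.7% and 32.3% of all genes. These bins were chosen after the data were seen.

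**Figure D3:**
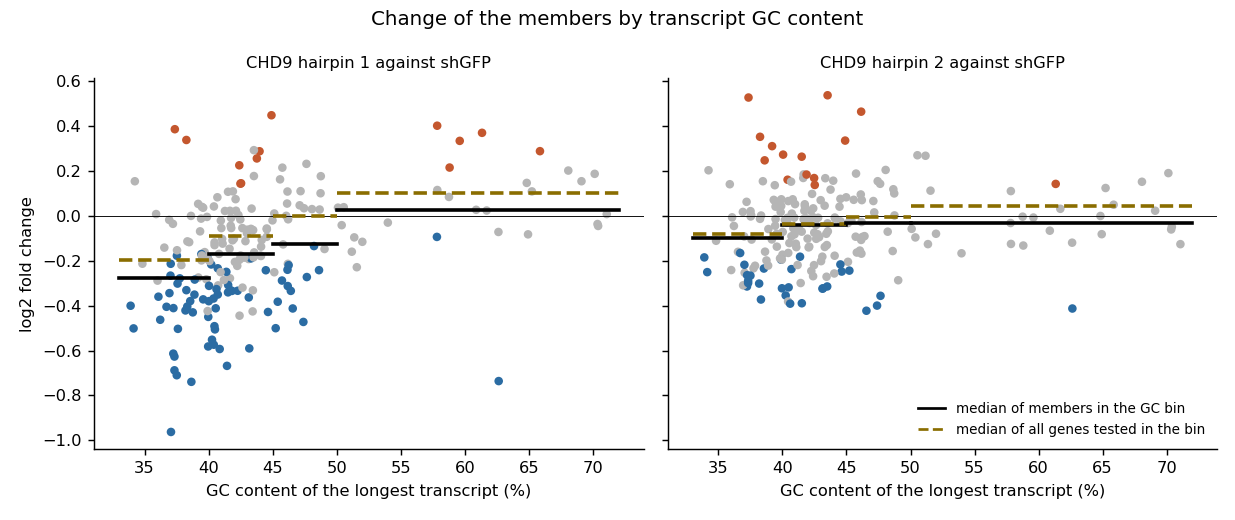
Log2 fold change of the 207 members (vertical axis) against the GC content of the longest transcript in percent (horizontal axis), for each hairpin against shGFP; blue points were lower and orange points higher at an adjusted p under 0.05, and grey points did not pass. Solid lines are the medians of the members and dashed lines those of all genes tested in the same GC bin; with hairpin 1 the solid line lies below the dashed line in all 4 bins.

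As fitted, a larger share of the members with the linker word was lower than of those without. Of the 139 with the word, 45 fell (32.4%) and 5 rose (3.6%), with a median of -0.13. Of the 68 without, 14 fell (20.6%) and 6 rose (8.82%), with a median of -0.05. The shares of all genes tested were 23.2% lower and 22.3% higher. Their median GC contents were 40.99% and 46.98%. Under the GC content and length correction 20 were lower (14.4%) and 14 higher (10.1%) with the word. Without the word 18 were then lower (26.5%) and 6 higher (8.82%), so the order of the shares lower was reversed. The shares of all genes were then 23.7% lower and 20.5% higher. The division was made after the data were seen, and the difference was not tested.

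Sequence shared with other genes limited some members. For 15, more than 20% of the 50-base words of the longest transcript also occurred in another gene, so their counts are uncertain. This measure does not separate copied genes from overlapping annotations of the same locus. ZNF320 (99.5%) and ZNF468 (99.2%) were the extreme case, and their annotated spans overlap, at chr19:52863790-52897693 and chr19:52838008-52890375 on the same strand. ZNF468 fell by 0.22 (SE 0.06, adjusted p = 0.0026), whereas ZNF320 had 0.02 (SE 0.04, adjusted p = 0.71). ZNF98, with 58.1% shared, had a log2 fold change of -0.30 (adjusted p = 0.034). Corrected for GC content and length, the calls of ZNF468 (-0.12) and ZNF98 (-0.13) were lost and ZNF320 was called higher (0.12).

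Other gene sets gave a comparison at the same minimum level, with both hairpins together. Of 196 ZNF genes on other chromosomes, 54 fell and 35 rose, with a median of -0.05. In share, 27.6% were lower, close to the 28.5% on chromosome 19, and 17.9% were higher, beside 5.31%. With the GC content and length correction 57 of 196 fell and 39 rose. These shares, 29.1% and 19.9%, were both above the 18.4% and 9.66% on chromosome 19. The other protein-coding genes of chromosome 19 numbered 661, had a median GC content of 60.3%, and showed the opposite balance. There 291 rose and 99 fell, with a median of 0.07. With the correction the balance turned, to 148 higher and 244 lower. No test was made of these differences between lists.

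**Figure D4:**
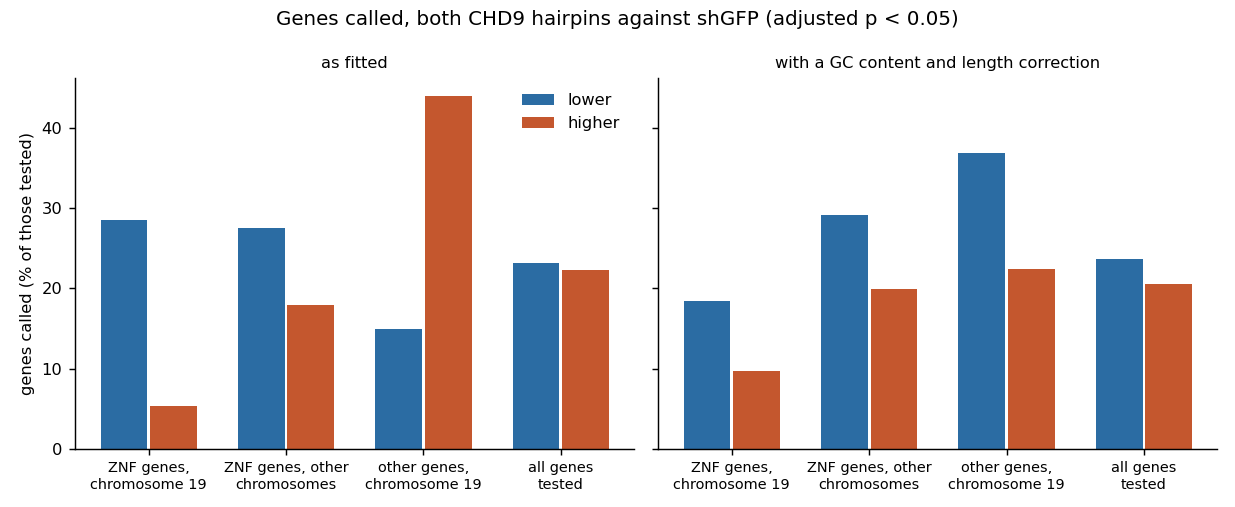
Percent of tested genes called higher (orange) or lower (blue) with both CHD9 hairpins against shGFP (vertical axis, from 0), without (left) and with (right) the GC content and length correction, for ZNF genes of chromosome 19 and of other chromosomes, other protein-coding genes of chromosome 19 and all genes tested. The ZNF genes of chromosome 19 had 28.5% lower and 5.31% higher as fitted, and 18.4% and 9.66% with the correction; the other genes of the chromosome changed from mostly higher to mostly lower.

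Lists of the machinery through which KRAB zinc finger proteins act held genes called in each direction. Of 14 genes of the TRIM28 corepressor list, 3 rose and 6 fell with both hairpins together (median -0.05). In all 64.3% were called, beside 45.5% of all genes tested and 57.6% of the protein-coding genes of other chromosomes outside the ZNF genes that met the same minimum level. TRIM28 itself, the scaffold, had 924, 959 and 913 CPM in shGFP, 944, 908 and 920 under hairpin 1 and 877, 885 and 926 under hairpin 2. The groups overlapped and its log2 fold change of -0.03 (SE 0.02, adjusted p = 0.17) did not pass. It passed once GC content and length were corrected for, at -0.21 (SE 0.02). SETDB1, which methylates histone H3, fell by 0.10 (SE 0.03, adjusted p = 0.012). Its partner ATF7IP, which protects SETDB1 from degradation, had 43.9, 42.3 and 43.2 CPM in shGFP, 53.8, 58.6 and 53.5 under hairpin 1, and 55.1, 54.9 and 54.8 under hairpin 2. Every CHD9 library exceeded every control, and ATF7IP rose by 0.35 (SE 0.04, adjusted p = 6.3e-10).

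The HP1 genes differed among themselves. CBX5, encoding HP1 alpha, had 871, 850 and 887 CPM in shGFP, 664, 658 and 661 under hairpin 1 and 763, 819 and 801 under hairpin 2. The 3 groups did not overlap, and it fell by 0.26 (SE 0.02, adjusted p = 1.4e-14). CBX1, encoding HP1 beta, had a value of -0.02 that did not pass (adjusted p = 0.51). CBX3, encoding HP1 gamma, fell by 0.07 (SE 0.02, adjusted p = 0.0092), and with the GC content and length correction it was called in the other direction (0.08, adjusted p = 0.0010). The remodeller SMARCAD1 fell by 0.28 (SE 0.05) and the deacetylase HDAC2 by 0.15 (SE 0.03), while HDAC1 rose by 0.09 (SE 0.02). The same correction took SMARCAD1 to -0.12 (adjusted p = 0.019) and HDAC2 to -0.053 (adjusted p = 0.071), which ended the call of HDAC2.

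In the list of the HUSH silencing complex and H3K9 methylation, 12 of 14 genes were tested, and 4 rose and 5 fell. That is 33.3% higher and 41.7% lower, beside 22.3% and 23.2% of all genes tested and 26.9% and 30.7% of the protein-coding genes of other chromosomes. EHMT2 and DAXX had close to 0 counts in all libraries and were not tested. How reads with several matches were counted is not known, so these values do not show that the genes were silent. The HUSH subunits TASOR (-0.25), MPHOSPH8 (-0.11) and PPHLN1 (-0.16) all passed as lower, and so did TASOR2 (-0.09) and the H3K9 methyltransferase EHMT1 (-0.16). The ATPase MORC2, which works with HUSH, rose by 0.14 (SE 0.03, adjusted p = 7.6e-06). The H3K9 demethylases KDM4A (0.16), KDM4B (0.28) and KDM4C (0.18) rose as well. With the GC content and length correction 5 of the 12 rose and 2 fell. The calls of TASOR (-0.11, adjusted p = 0.23), MPHOSPH8 (-0.059, adjusted p = 0.15), PPHLN1 (-0.065, adjusted p = 0.052) and TASOR2 (-0.0052, adjusted p = 0.90) were then lost. KDM4B dropped to 0.071, while EHMT1 moved to -0.32.

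Of 12 DNA methylation genes, 4 rose and 3 fell, so 58.3% were called, close to the 57.6% of the protein-coding genes of other chromosomes. DNMT1, the maintenance methyltransferase, had 237, 238 and 235 CPM in shGFP, 279, 275 and 274 under hairpin 1 and 294, 298 and 309 under hairpin 2. The groups did not overlap, and it rose by 0.28 (SE 0.02, adjusted p = 6.5e-14). TET2, which oxidises methylcytosine, had 29.9, 26.2 and 26.6 CPM in shGFP, 19.7, 21.9 and 18.03 under hairpin 1 and 22.4, 20.98 and 22.4 under hairpin 2. All CHD9 libraries were below the controls, and it fell by 0.40 (SE 0.06, adjusted p = 2.9e-07). After the correction 1 gene of this list rose and 3 fell.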

How the data were processed

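RNA of 22Rv1 cells was sequenced in 9 libraries, 3 in each of 3 groups, assigned by their titles. Per the submitters' processing notes, Trim Galore, STAR, DESeq2 and hg38 were used. What each did, the program that counted reads, whether it used strand, and how it treated reads with several matches is not given in the sources used here. Therefore overlapping, antisense and near-identical genes cannot be told apart. The authors deposited raw read counts per gene, without normalisation.

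From these, members were found with GENCODE 29, which matched 58541 of 67071 genes. Genes were kept by filterByExpr with a minimum count of 10, scaled by TMM and tested in edgeR 4.0.16 (R 4.3.3) with a quasi-likelihood model of 3 group means over all 9 libraries, in 4 contrasts. Benjamini-Hochberg adjustment was over all 16855 genes tested, and calls were made at 0.05. Standard errors are the size of the log2 fold change over the square root of F. The procedure was tested on simulated data.

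GC content is that of the longest transcript and length that of all exons, known for 97.8% of genes tested. The correction subtracted, in each library, a natural spline with 5 degrees of freedom in each. Alternatives were other scaling, filters and thresholds, DESeq2 1.42.0, a replicate block, this correction and leaving out each library.

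The members and lists were chosen with earlier results of these data known. Named members are the 10 highest and 10 lowest called with both hairpins together, the 5 highest and 5 lowest called between hairpins, any called in opposite directions, the 5 most abundant per kilobase, 3 on each side of the level limit, and ZNF274. Close-copy shares, GC bins, the linker division and the promoter words were added after the data were seen. A protein table was not used here.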

Additional observations from a re-analysis of the deposited data

How the results depend on the processing

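With the correction for GC content and length, 20 members were higher and 38 lower for both hairpins together, 42 lower for hairpin 1, and 19 lower for hairpin 1 against hairpin 2. Combined with the replicate block these were 20, 38, 43 and 18. The block alone kept every count within 1.5 times: 13 higher and 58 lower for both hairpins, 13 and 69 for hairpin 1, 14 and 28 for hairpin 2, and 7 and 43 between hairpins. The replicate numbers did not pair the libraries: the correlations of deviations between libraries of the same number were -0.07 to 0.06, and 0 of 9 were over 0.1.

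DESeq2 gave 9 higher and 19 lower for hairpin 2, and 26 lower between hairpins. At an adjusted p under 0.01 there were 5 higher for both hairpins, 7 higher and 16 lower for hairpin 2, and 19 lower between hairpins. Treating the 6 CHD9 libraries as 1 group gave 7 higher and 36 lower. Leaving out 1 library in turn gave 8 to 16 higher and 42 to 60 lower for both hairpins, 10 to 13 and 54 to 70 for hairpin 1, 8 to 15 and 18 to 30 for hairpin 2, and 5 to 7 and 27 to 42 between hairpins. For hairpin 2, the higher calls fell to 8 without shGFP replicate 2 and to 9 without hairpin 2 replicate 2 or 3. The lower calls fell to 18 without shGFP replicate 3 and 19 without hairpin 2 replicate 1. Between hairpins, 29, 27 and 27 were lower without hairpin 1 replicate 1, hairpin 1 replicate 2 and hairpin 2 replicate 2. These fits hold fewer libraries. The sign turned for ZNF579 with the GC content and length correction (-0.018, and -0.019 with the block added) and for ZNF787 without shGFP replicate 2. Leaving out each library in turn, ZNF787 ranged from -0.12 to 0.015. The cause of the other changes was not tested. The other settings kept each count within 1.5 times. So did taking in symbols with a letter after the digits and HKR1, and leaving out the 15 members with close copies, both chosen after the data were seen. The lowest members, at 32 to 79 counts per library, allow only large differences to be seen.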
